A study of Mus musculus with 6 samples.

Results

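The 10 genes described here are transcripts that mark activity of the tumour suppressor p53 or cellular senescence, *Cdkn1a*, *Cdkn2a*, *Cdkn2b*, *Cdkn2c*, *Mdm2*, *Ccng1*, *Bax*, *Phlda3*, *Trp53inp1* and *Zmat3*. They were chosen by name, as the entries of the count table whose Ensembl identifier maps to these symbols. No value entered this rule, but the set was named with earlier results of these data known. All 10 were found among 49671 gene IDs, and all 10 passed the filter on low counts that kept 16089 genes for testing. Bulk RNA-seq was performed on livers of 6 male C57BL/6J mice, 3 SHMT2fl/fl (labelled WT) and 3 SHMT2HKO (labelled KO). Both groups carried the floxed *SHMT2* allele, and SHMT2HKO mice also carried Albumin-Cre, which deletes *SHMT2* in hepatocytes. From protein levels in whole livers, the paper proposes that the other cells of the liver kept their SHMT2. All mice ate the AMLN diet, a high-fat, high-fructose and high-cholesterol diet that induces fatty liver disease, starting at an age of 4 weeks and lasting 18 weeks, so there was no chow-fed group among these libraries. The question addressed was whether loss of the mitochondrial serine enzyme SHMT2 in hepatocytes was accompanied by a change in these genes.

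p53 is a transcription factor that is held at a low level by the ubiquitin ligase MDM2, is stabilised when DNA is damaged or nucleotides run short, and then switches on genes that stop the cell cycle, repair DNA or start apoptosis. *Mdm2* is itself a target of p53, which closes a feedback loop. Senescent cells leave the cell cycle permanently through p21, encoded by *Cdkn1a*, and through the INK4 inhibitors of CDK4 and CDK6, and they secrete cytokines, proteases and matrix factors. In steatotic livers, senescence has been described in hepatocytes, cholangiocytes and activated stellate cells.

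Counts on genes ranged from 23090837 to 34089722 per liver. Values are given as CPM, the count scaled to the library size after TMM normalization in edgeR, with the SD over the 3 mice of a genotype. The floor of 3 counts corresponded to 0.0734 to 0.152 CPM and covers counting error only. The targeted gene *Shmt2* was at 99.2 ± 8.51 CPM (SD, n = 3) in SHMT2fl/fl livers and at 24.2 ± 4.51 CPM (SD, n = 3) in SHMT2HKO livers, a log2 fold change of -2.04 (SE 0.16, adjusted p = 0.000639, edgeR). The TMM factors were 1.13 to 1.21 in SHMT2fl/fl and 0.802 to 0.984 in SHMT2HKO livers, so the scaling entered every fold change. The median log2 fold change of all genes was 0.03, against -0.40 without TMM, -0.69 with scaling to the ERCC spike-in RNAs and 0.19 after correction for GC content and length. The ERCC share of counts was 1.42% to 1.84% in SHMT2fl/fl livers. In SHMT2HKO mice 1, 2 and 3 it was 2.75%, 2.31% and 1.35%, so it was uneven within that genotype. Between genotypes, an exact permutation test, two-sided, gave p = 0.4 for this share.

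Of the members, 8 had a promoter entry in RefSeq (GRCm38.p6), with 11 start sites in all. *Trp53inp1* and *Zmat3* had no entry. The 250 bases before each start were searched on both strands for the p53 consensus element, a pair of half-sites of 10 bases with a spacer of 0 or 1 base. A stretch with at most 1 mismatch was found in 46 of 32851 windows of all genes (0.14%) and in 3 of the 11 windows of the members. The members were chosen by name as p53 or senescence genes, so the share among them is no finding about these livers. The first 3 sequences below are shown because they hold such a stretch, and the last 2 because they are the closest stretches of *Phlda3* and *Cdkn2b*, whose levels fell the most. The capitals mark the stretch with the fewest mismatches, written 5′ to 3′ on the strand of the gene, with 10 bases on each side.
Cdkn1a, chr17:29090918-29090957, plus strand: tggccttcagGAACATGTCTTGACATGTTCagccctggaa
Ccng1, chr11:40755452-40755491, minus strand: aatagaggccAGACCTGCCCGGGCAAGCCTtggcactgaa
Bax, chr7:45467080-45467120, minus strand: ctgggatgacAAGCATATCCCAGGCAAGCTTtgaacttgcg
Phlda3, chr1:135766032-135766071, plus strand: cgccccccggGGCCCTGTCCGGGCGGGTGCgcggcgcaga
Cdkn2b, chr4:89311170-89311210, minus strand: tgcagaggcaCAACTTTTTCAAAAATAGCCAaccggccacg

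The *Cdkn1a* stretch lay at positions -51 to -32 from the upstream start of the gene, the *Ccng1* stretch at -195 to -176 and the *Bax* stretch at -212 to -192, and each had 1 mismatch to the consensus. The *Phlda3* stretch had 5 mismatches, a number that 85.9% of all windows matched or bettered, and the *Cdkn2b* stretch had 4, which 41.6% of all windows matched or bettered. The other windows of the members had no stretch with fewer than 4 mismatches, with 4 and 5 mismatches at the starts of *Cdkn2c*, 5 at that of *Mdm2*, 5 and 6 at those of *Cdkn2a* and 5 at the downstream start of *Cdkn1a*. *Cdkn1a*, *Ccng1* and *Bax*, which had a close match, were not called between the genotypes (below). The called members *Cdkn2b*, *Cdkn2c* and *Phlda3* had none, and neither had *Cdkn2a* and *Mdm2*, which were not called. The median over all windows was 5 mismatches. A match describes letters in a window of 250 bases and is neither a bound site nor a cause, and elements in introns were not searched.

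Of the 10 genes, 3 fell in SHMT2HKO livers at an adjusted p under 0.05, namely the INK4 inhibitors *Cdkn2b* and *Cdkn2c* and the AKT repressor *Phlda3*, and none rose. Among all genes tested, 16.5% were called lower and 12.5% were called higher by the same rule. No member was higher at an unadjusted p under 0.05 either (0 of 10), and the count of higher members was 0 with DESeq2 and 0 with limma-voom. The 3 SHMT2HKO livers lay below the 3 SHMT2fl/fl livers for 5 members (25.0% of all genes) and above them for 0 (21.9% of all genes). The median log2 fold change of the members was -0.78, against 0.03 for all genes. The 3 lower members fell by between 2.10-fold and 3.74-fold, whereas *Mdm2*, *Ccng1*, *Bax* and *Zmat3* had log2 fold changes between -0.20 and 0.20. Within SHMT2HKO livers, mouse 1 had the lowest value for 7 of the 10 members, and the same 3 members were called lower without that mouse. The share of all genes lowest in that mouse was not counted, so the 7 cannot be set against it.

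**Figure D1:**
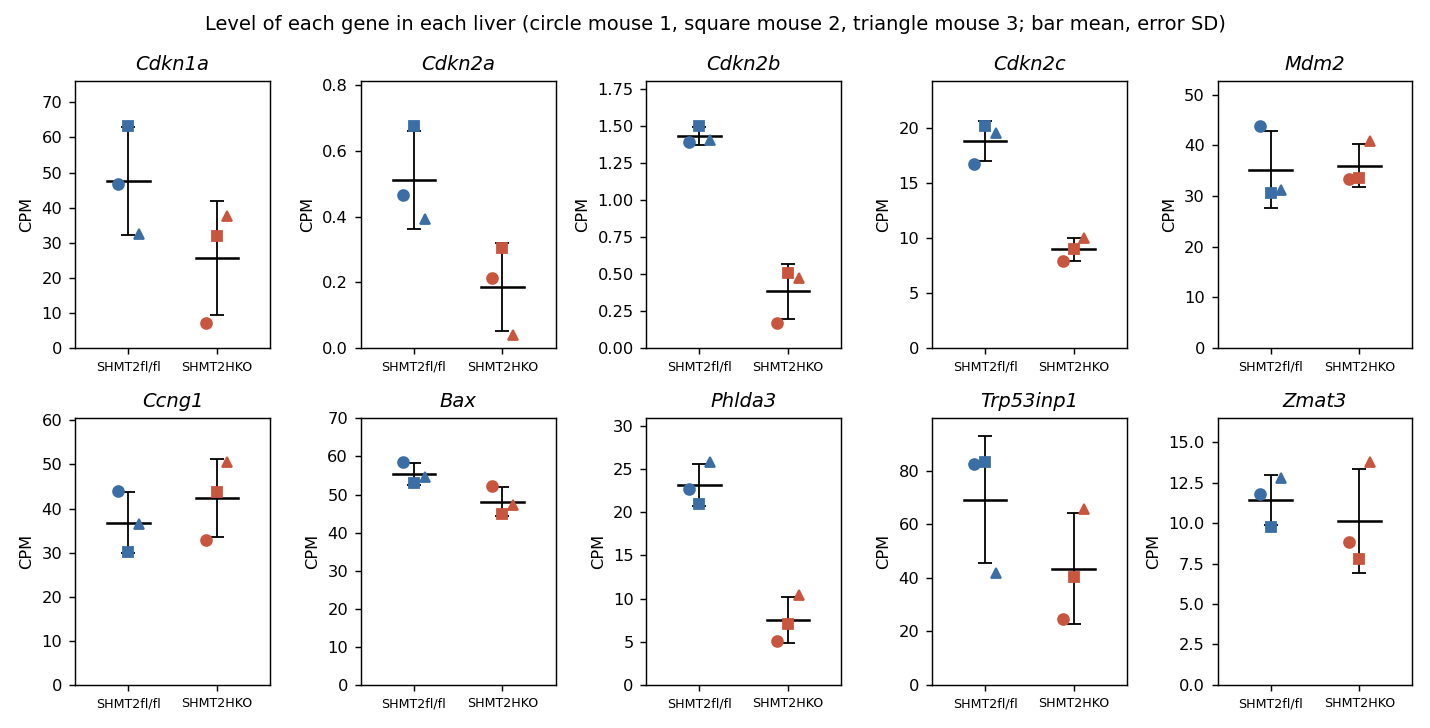
CPM of each of the 10 genes in each liver, with SHMT2fl/fl in blue and SHMT2HKO in red, bars at the mean and error bars showing the SD of 3 mice. The groups are apart for *Cdkn2a*, *Cdkn2b*, *Cdkn2c*, *Bax* and *Phlda3*, and the *Cdkn1a* points of SHMT2HKO livers run from 7.22 to 37.7 CPM.

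The INK4 genes encode small proteins that bind CDK4 and CDK6 and keep them from the D cyclins. *Cdkn2b*, which encodes p15INK4b and lies on the minus strand at chr4:89306299-89311039 (GRCm38), had 57, 40 and 54 counts in SHMT2fl/fl mice 1, 2 and 3 and 4, 10 and 12 counts in SHMT2HKO mice 1, 2 and 3. This came to 1.39, 1.505 and 1.41 CPM against 0.170, 0.506 and 0.472 CPM. The SHMT2fl/fl livers were close to each other, and every SHMT2HKO liver was below all of them. The level fell 3.74-fold, a log2 fold change of -1.90 (SE 0.43, 95% interval -2.89 to -0.92, adjusted p = 0.0138, edgeR). The adjusted p was 0.0521 without SHMT2fl/fl mouse 2 and 0.0561 without SHMT2fl/fl mouse 3, with log2 fold changes of -1.87 and -1.91.

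*Cdkn2c*, which encodes p18INK4c and lies at chr4:109660876-109667189 on the minus strand, was more abundant. It stood at 16.8, 20.2 and 19.5 CPM in SHMT2fl/fl mice 1, 2 and 3 and at 7.89, 9.01 and 9.998 CPM in SHMT2HKO mice 1, 2 and 3. The groups did not overlap, and the spread within each was small beside the gap between them. *Cdkn2c* fell 2.10-fold (log2 fold change -1.07, SE 0.15, 95% interval -1.41 to -0.72, adjusted p = 0.00244, edgeR) and was called lower in every one of the 16 alternative settings.

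*Cdkn2a*, at chr4:89274471-89294653 on the minus strand, encodes both p16INK4a, an inhibitor of CDK4 and CDK6, and p19ARF, an inhibitor of MDM2, from separate starts, and the gene-level counts sum their transcripts. It had only 19, 18 and 15 counts in SHMT2fl/fl mice 1, 2 and 3 and 5, 6 and 1 counts in SHMT2HKO mice 1, 2 and 3, or 0.465, 0.677 and 0.391 CPM against 0.212, 0.304 and 0.0394 CPM. Each SHMT2HKO liver was below each SHMT2fl/fl liver, and SHMT2HKO mouse 3 was under the floor of 3 counts. Its log2 fold change of -1.48 (SE 0.63, 95% interval -2.92 to -0.04) did not pass the test (adjusted p = 0.112, edgeR), and an exact permutation test, two-sided, gave p = 0.1, the smallest that 3 mice against 3 allow. *Cdkn2a* passed without TMM (adjusted p = 0.0373) and with ERCC scaling (adjusted p = 0.0147).

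*Phlda3*, at chr1:135766119-135769136 on the plus strand, encodes a pleckstrin homology domain protein that keeps AKT from the membrane. Its levels were 22.7, 20.9 and 25.8 CPM in SHMT2fl/fl mice 1, 2 and 3 and 5.14, 7.09 and 10.4 CPM in SHMT2HKO mice 1, 2 and 3. The highest SHMT2HKO liver was well below the lowest SHMT2fl/fl liver. *Phlda3* fell 3.06-fold (log2 fold change -1.61, SE 0.24, 95% interval -2.17 to -1.05, adjusted p = 0.00309, edgeR) and was called lower in every one of the 16 alternative settings.

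The share of mitochondrially encoded transcripts was 3.25% to 3.63% of gene counts in SHMT2fl/fl and 4.30% to 4.97% in SHMT2HKO livers, and 23218 to 24340 against 20936 to 22703 genes had a count, so both library measures moved with the genotype, and their part in the results was not tested. The falls of *Cdkn2b*, *Cdkn2c* and *Phlda3* were measured in whole livers, where fewer cells of a type and less RNA per cell cannot be told apart, and markers of several non-hepatocyte cell types were also lower in SHMT2HKO livers. The summed level of 12 stellate cell and myofibroblast markers was 1615 to 1699 CPM in SHMT2fl/fl and 395 to 991 CPM in SHMT2HKO livers, with 7 markers called lower and 1 called higher. The 10 cholangiocyte markers summed to 1042 to 1308 CPM and 155 to 274 CPM, and all 10 were called lower. Most of the mean sum in both genotypes came from *Spp1*, which is also counted in the senescence list below. The 12 T and NK cell markers summed to 29.7 to 34.2 CPM and 6.38 to 9.68 CPM, with 10 called lower and 0 called higher. In these lists, 58.3%, 100% and 83.3% of the markers were called lower, against 16.5% of all genes tested. The part of these cells in the lower *Cdkn2b*, *Cdkn2c* and *Phlda3* was not tested.

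Of the other marker lists, the B cell sum fell about as far as the stellate cell and myofibroblast sum. The ratios of the SHMT2HKO to the SHMT2fl/fl mean were 0.409 and 0.401. The remaining lists moved less or the other way. The 12 macrophage markers summed to 394 to 460 CPM in SHMT2fl/fl and 291 to 366 CPM in SHMT2HKO livers, with 3 called higher and 5 called lower. The 8 B cell markers summed to 19.0 to 25.2 CPM and 6.41 to 10.2 CPM, with 2 called lower. Of the 8 neutrophil markers, 4 were tested and 1 was called lower, and the list summed to 8.09 to 12.3 CPM and 4.51 to 8.38 CPM. The 12 hepatocyte markers, whose RNA dominates the liver, summed to 58206 to 71212 CPM and 70840 to 105471 CPM, with 3 called higher and 0 called lower, so the labelled tissue was borne out in both genotypes. The 10 endothelial markers summed to 322 to 351 CPM and 327 to 409 CPM, with 2 called higher and 1 called lower. Of the 8 erythroid markers, 6 were tested and 1 was called higher, and the list summed to 102 to 189 CPM and 220 to 246 CPM. No list held a marker at 0 in all livers. Of all genes tested, 12.5% were called higher and 16.5% lower. The shares called higher were 25% of the macrophage, 25% of the hepatocyte, 20% of the endothelial and 16.7% of the tested erythroid markers. The shares called lower were 41.7% of the macrophage, 25% of the B cell, 25% of the tested neutrophil and 10% of the endothelial markers.

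**Figure D2:**
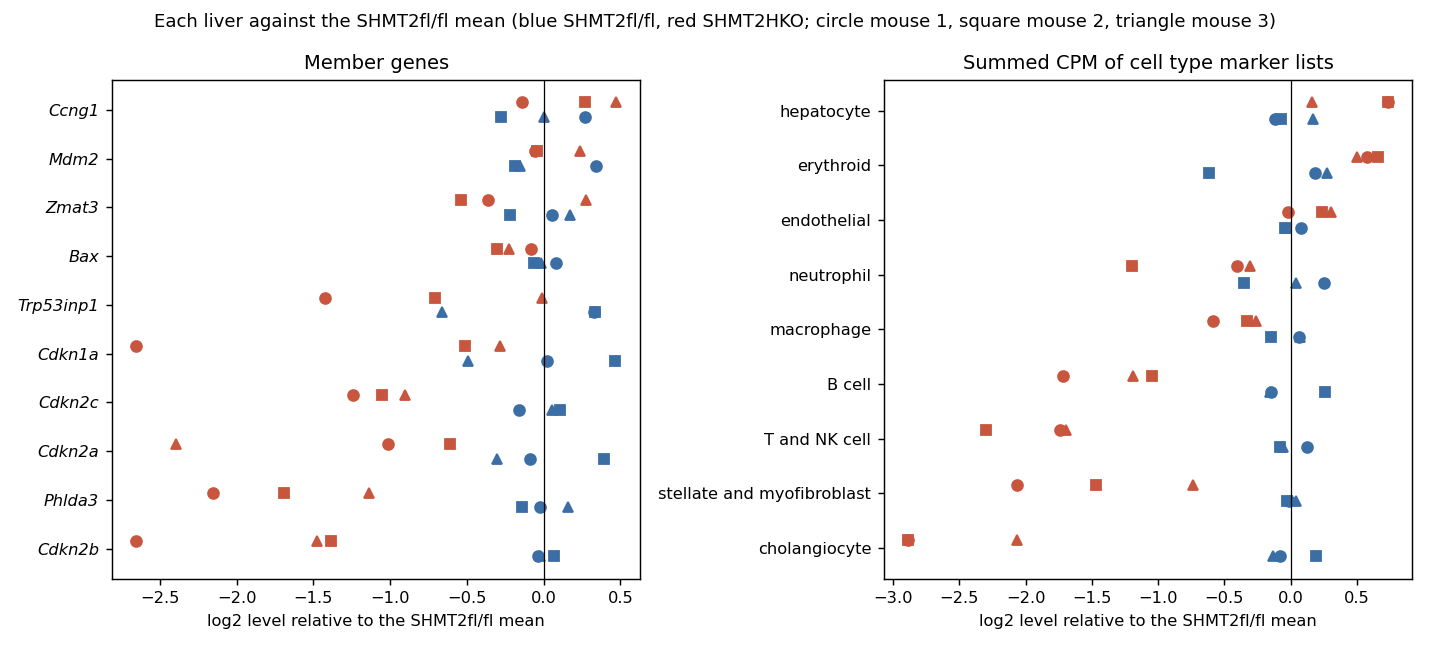
Log2 level of each liver relative to the SHMT2fl/fl mean, for the 10 genes on the left and for the summed CPM of 9 cell type marker lists on the right, with SHMT2fl/fl in blue and SHMT2HKO in red. SHMT2HKO mouse 1 (circles) is the lowest SHMT2HKO liver for 7 of the 10 genes. It is also the lowest for the stellate cell and myofibroblast, macrophage, B cell and endothelial sums, and nearly level with mouse 2 as the lowest for cholangiocytes. For the other marker lists another SHMT2HKO liver is the lowest. In the stellate cell and myofibroblast sum, the 3 SHMT2HKO livers were at 395, 596 and 991 CPM.

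*Cdkn1a*, at chr17:29090976-29100727 on the plus strand, encodes p21, which blocks CDK2 and is the best known p53 target. Its levels were 46.6, 63.4 and 32.6 CPM in SHMT2fl/fl mice 1, 2 and 3 and 7.22, 32.1 and 37.7 CPM in SHMT2HKO mice 1, 2 and 3. SHMT2HKO mouse 1 was far below the other 5 livers, while SHMT2HKO mouse 3 was above SHMT2fl/fl mouse 3, so the groups overlapped. The log2 fold change of -0.89 (SE 0.55, 95% interval -2.19 to 0.41) did not pass the test (adjusted p = 0.269, edgeR), and it was -0.44 without SHMT2HKO mouse 1 (adjusted p = 0.225). The interval spans changes from a marked fall to a modest rise. The highest SHMT2HKO liver had 5.23 times the level of the lowest, and 4.22% of 15913 genes with counts in all SHMT2HKO livers were at least as spread, against a median ratio of 1.45. *Cdkn1a* shares 273 exon bases with the antisense transcript AC167363.2, whose reads cannot be told apart from it without strand, and it passed the test only with ERCC scaling (log2 fold change -1.35, adjusted p = 0.0485).

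*Trp53inp1*, at chr4:11156431-11174379 on the plus strand, encodes a stress protein that promotes p53 activity and autophagy. It stood at 82.7, 83.2 and 41.7 CPM in SHMT2fl/fl mice 1, 2 and 3 and at 24.5, 40.3 and 65.6 CPM in SHMT2HKO mice 1, 2 and 3. The groups overlapped, with SHMT2fl/fl mouse 3 low and SHMT2HKO mouse 3 high. The log2 fold change was -0.67 (SE 0.39, 95% interval -1.59 to 0.25, adjusted p = 0.243, edgeR), and it ranged from -0.38 without SHMT2HKO mouse 1 to -1.12 without SHMT2HKO mouse 3. In SHMT2fl/fl livers, the highest value was 1.996 times the lowest for *Trp53inp1* and 1.95 times for *Cdkn1a*, which 8.68% and 9.50% of 16079 genes reached.

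By the measure fixed for likeness, the root mean square difference over the 6 livers of log2 CPM relative to the SHMT2fl/fl mean, genes near to *Cdkn1a* were *Gdf9*, *Ppp1r3g*, *Pheta2* and *Tlr11*. Their differences ran from 0.21 for *Gdf9* to 0.27 for *Tlr11*. *Ppp1r3g*, a glycogen-targeting subunit of protein phosphatase 1, was at 20.6, 18.6 and 9.003 CPM in SHMT2fl/fl mice 1, 2 and 3 and at 2.12, 11.4 and 13.5 CPM in SHMT2HKO mice 1, 2 and 3, so SHMT2HKO mouse 1 was the lowest and the groups overlapped. None of these was called between the genotypes, with adjusted p-values from 0.135 for *Pheta2* to 0.353 for *Ppp1r3g* (edgeR). *Gdf9*, *Pheta2* and *Tlr11* had 1 to 3 counts in SHMT2HKO mouse 1.

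*Mdm2*, at chr10:117688875-117710758 on the minus strand, was at 43.9, 30.6 and 31.2 CPM in SHMT2fl/fl mice 1, 2 and 3 and at 33.4, 33.7 and 40.9 CPM in SHMT2HKO mice 1, 2 and 3. The groups overlapped almost entirely. Between genotypes, the log2 fold change was 0.03 (SE 0.17, 95% interval -0.36 to 0.42, adjusted p = 0.911, edgeR), a value whose sign turned under scaling without TMM (-0.39), by the upper quartile (-0.06) and to the ERCC RNAs (-0.64).

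*Ccng1*, at chr11:40748552-40755311 on the minus strand, encodes cyclin G1, which recruits a phosphatase to MDM2. It was at 43.9, 30.0 and 36.4 CPM in SHMT2fl/fl mice 1, 2 and 3 and at 32.9, 43.8 and 50.5 CPM in SHMT2HKO mice 1, 2 and 3. The ranges overlapped, although SHMT2HKO mouse 3 was the highest of all 6 livers. The log2 fold change was 0.20 (SE 0.19, 95% interval -0.24 to 0.65, adjusted p = 0.464, edgeR), and it was -0.21 without TMM and -0.44 with ERCC scaling.

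*Zmat3*, at chr3:32334792-32366014 on the minus strand, encodes an RNA-binding zinc finger protein that acts in the growth arrest set by p53. Its levels were 11.8, 9.74 and 12.8 CPM in SHMT2fl/fl mice 1, 2 and 3 and 8.83, 7.80 and 13.8 CPM in SHMT2HKO mice 1, 2 and 3. Both the highest and the lowest of the 6 livers were SHMT2HKO livers. For *Zmat3* the log2 fold change was -0.17 (SE 0.23, 95% interval -0.71 to 0.36, adjusted p = 0.612, edgeR), and 0.03 after the GC and length correction.

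*Bax*, at chr7:45461697-45466898 on the minus strand, encodes the pore-forming member of the BCL2 family that opens the outer mitochondrial membrane in apoptosis. It was at 58.5, 53.05 and 54.6 CPM in SHMT2fl/fl mice 1, 2 and 3 and at 52.2, 44.9 and 47.3 CPM in SHMT2HKO mice 1, 2 and 3. The groups did not overlap, but the lowest SHMT2fl/fl liver and the highest SHMT2HKO liver were nearly level. The log2 fold change was -0.20 (SE 0.11, 95% interval -0.46 to 0.05, adjusted p = 0.209, edgeR), was 0.09 after the GC and length correction and passed the test only without TMM (-0.63, adjusted p = 0.0123). *Bax* shares 192 exon bases with *Gm45808* on the same strand, which had 3 counts in SHMT2fl/fl mouse 1 and 0 in the other livers.

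**Figure D3:**
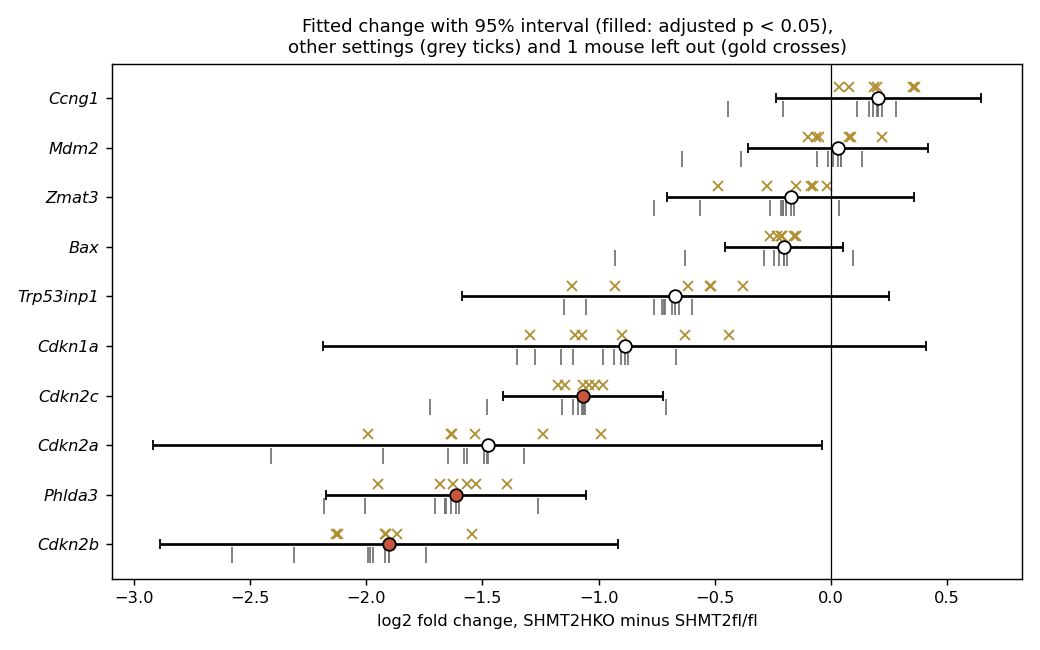
Log2 fold change of SHMT2HKO over SHMT2fl/fl livers with its 95% interval for the 10 genes, filled where the adjusted p was under 0.05, with grey ticks for the other settings and gold crosses for fits without 1 mouse. *Cdkn2b*, *Phlda3* and *Cdkn2c* are filled, and the intervals of *Mdm2*, *Ccng1*, *Zmat3* and *Bax* lie between -0.71 and 0.65.

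Per kilobase of merged exons, *Bax* was the most abundant of the 10 transcripts in both genotypes, with 35.1 ± 1.78 CPM per kb (SD, n = 3) in SHMT2fl/fl and 30.5 ± 2.38 (SD, n = 3) in SHMT2HKO livers, and no other member's range reached it. In SHMT2fl/fl livers, *Phlda3* (14.9), *Cdkn1a* (13.4), *Trp53inp1* (10.7) and *Ccng1* (10.5 CPM per kb) followed, and each overlapped its neighbour in this order. *Cdkn2c* (7.01) and *Mdm2* (6.93 CPM per kb) overlapped each other, and *Cdkn2c* lay below *Ccng1* while *Mdm2* reached into its range, and *Cdkn2b* (1.03) and *Zmat3* (1.001 CPM per kb) overlapped far below these. *Cdkn2a* was the least abundant in both genotypes, at 0.436 CPM per kb in SHMT2fl/fl and 0.158 CPM per kb in SHMT2HKO livers.

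In SHMT2HKO livers, *Phlda3* stood at 4.84 CPM per kb, sixth of the 10, after *Ccng1* (12.1), *Cdkn1a* (7.22), *Mdm2* (7.08) and *Trp53inp1* (6.71 CPM per kb), and each of these overlapped its neighbour. *Cdkn2c* (3.34 CPM per kb) overlapped *Phlda3* and lay above *Zmat3* (0.886 CPM per kb), which no longer overlapped *Cdkn2b* (0.275 CPM per kb). *Cdkn2b* and *Cdkn2a* overlapped each other.

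Among 22 tested genes that code for p53 or that stabilise, activate or restrain it, 1 was called higher and 2 were called lower. These shares were 4.55% and 9.09%, against 12.5% and 16.5% of all genes, and the median log2 fold change was -0.14. *Trp53*, which encodes p53, was at 42.9, 40.3 and 41.8 CPM in SHMT2fl/fl mice 1, 2 and 3 and at 30.5, 28.8 and 33.3 CPM in SHMT2HKO mice 1, 2 and 3. All SHMT2HKO livers were lower, and *Trp53* fell by 0.43 (log2, SE 0.11, adjusted p = 0.0205, edgeR), a call that was lost with ERCC scaling (adjusted p = 0.121), after the GC and length correction (0.228), without any 1 of the SHMT2fl/fl mice (0.0607 to 0.0797) and without SHMT2HKO mouse 2 (0.0724). p53 is regulated mainly at the protein level, which was not measured here. *Pml*, whose nuclear bodies activate p53, fell by 0.56 (adjusted p = 0.0146, edgeR), and *Cop1*, a ubiquitin ligase for p53, rose by 0.42 (adjusted p = 0.0300, edgeR), although it was at -0.27 with ERCC scaling. *Mdm4*, the partner of MDM2, was not called (log2 fold change -0.32, adjusted p = 0.189, edgeR). The call of *Pml* was lost without SHMT2fl/fl mouse 1 or 3 or SHMT2HKO mouse 2 (adjusted p = 0.0512 to 0.0653), with ERCC scaling (0.0681) and after the GC and length correction (log2 fold change -0.19, adjusted p = 0.285). The call of *Cop1* was lost without any 1 of the SHMT2fl/fl mice or SHMT2HKO mouse 1 (adjusted p = 0.0556 to 0.111), without TMM (0.978), with upper-quartile scaling (0.0675) and without a filter beyond 1 count (0.0614). *Trp63* and *Trp73*, the relatives of *Trp53*, had too few counts to be tested.

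Of 50 other described p53 targets, 47 were tested, 5 were called higher and 9 lower, shares of 10.6% and 19.1% that lay near the 12.5% and 16.5% of all genes. Their median log2 fold change was -0.30. The targets did not move together. *Plk3*, a stress kinase, rose 2.24-fold from 86.6 ± 13.5 to 194 ± 29.9 CPM (SD, n = 3, adjusted p = 0.00269, edgeR), with every SHMT2HKO liver above every SHMT2fl/fl liver. *Perp*, a junction protein with a role in apoptosis, rose by 0.71 (log2, adjusted p = 0.00688, edgeR). The remaining higher targets, named after their values were seen, were the death receptor *Fas* (0.67), the thiamine transporter *Slc19a2* (0.52) and *Ei24* (0.46), all of which turned negative with ERCC scaling and lost their calls without TMM. With ERCC scaling, *Plk3* was at 0.53 (adjusted p = 0.424) and *Perp* at 0.03 (adjusted p = 0.967), and without TMM *Perp* was at 0.29 (adjusted p = 0.214), so both calls were lost with ERCC scaling and that of *Perp* also without TMM. *Ak1*, an adenylate kinase, fell 4.34-fold from 11.8 ± 0.0826 to 2.70 ± 0.805 CPM (SD, n = 3, adjusted p = 0.00125, edgeR). *Tnfrsf10b*, the TRAIL death receptor, fell 3.35-fold (adjusted p = 0.0336, edgeR), and the other 7 lower targets had log2 fold changes between -1.74 and -0.54. The lower targets numbered 5 without any 1 of the SHMT2fl/fl mice or SHMT2HKO mouse 2 and 16 without SHMT2HKO mouse 3, and the higher ones 3 without any of the former, with the calls of *Tnfrsf10b* and *Ei24* lost in each of those 4 fits and that of *Slc19a2* in these and without SHMT2HKO mouse 3.

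**Figure D4:**
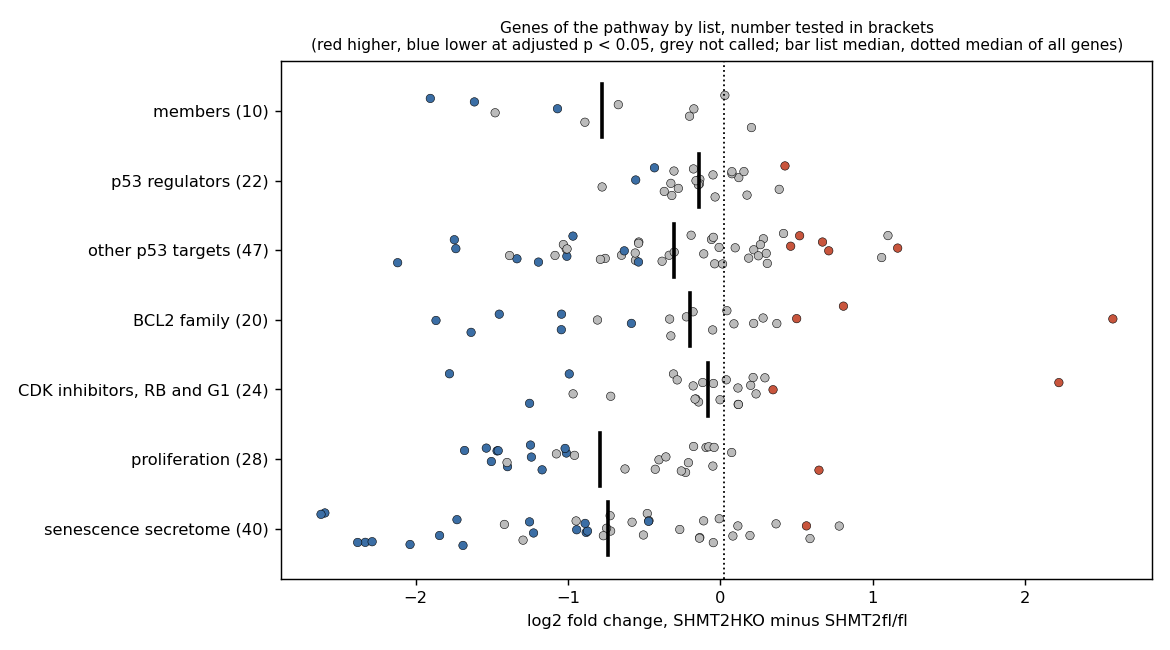
Log2 fold change of SHMT2HKO over SHMT2fl/fl livers for each tested gene of the pathway lists, with the number tested in brackets, red for genes called higher, blue for genes called lower, a bar at the list median and a dotted line at the median of all genes (0.03). The medians of the proliferation list (-0.79), the 10 member genes (-0.78) and the secretome list (-0.73) lie farthest from that line, and the other p53 targets lie on both sides of it.

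Of 24 genes for other CDK inhibitors, the RB family and the G1 machinery that p21 and the INK4 proteins act on, 2 were called higher and 3 lower. These shares were 8.33% and 12.5%, against 12.5% and 16.5% of all genes, and the median log2 fold change was -0.08. *E2f8*, a repressor of E2F targets, rose 4.66-fold from 4.12 ± 1.52 to 19.3 ± 6.13 CPM (SD, n = 3, adjusted p = 0.00305, edgeR). The pocket protein gene *Rbl2* rose by 0.35 (adjusted p = 0.0339, edgeR) but was at -0.08 without TMM and -0.38 with ERCC scaling. *Ccnd2*, which encodes a D cyclin that pairs with CDK4 and CDK6, fell 2.38-fold (adjusted p = 0.00164, edgeR), the phosphatase gene *Cdkn3* fell 3.43-fold (adjusted p = 0.0118, edgeR), and *E2f2*, named after its value was seen, fell by 0.99 (log2, adjusted p = 0.0440, edgeR). The direct partners *Cdk4* (-0.28, adjusted p = 0.0926), *Cdk6* (0.04, 0.861), *Cdk2* (0.12, 0.651), *Ccnd1* (-0.97, 0.0666) and *Rb1* (-0.14, 0.655) were not called by edgeR (log2 fold change, then adjusted p), and the signs of *Cdk6* and *Cdk2* turned without TMM and with ERCC scaling. *Ccnd1* was called lower with DESeq2 (adjusted p = 0.0165), without TMM (0.0182), with upper-quartile scaling (0.0480), with ERCC scaling (0.00737) and without SHMT2HKO mouse 1 (0.0260) or 2 (0.0475). *Cdk4* was called lower without TMM (adjusted p = 0.00621) and with upper-quartile scaling (0.0422). Leaving out 1 mouse ended the call of *Rbl2* for every mouse but SHMT2HKO mouse 3 and that of *E2f2* for every mouse but SHMT2fl/fl mouse 2, and *E2f2* was also not called after the GC and length correction (adjusted p = 0.191).

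The other inhibitors of the 2 CDK inhibitor families, named after their values were seen, were not called in the main fit either. *Cdkn1b*, which encodes p27, had a log2 fold change of -0.31 (95% interval -0.60 to -0.02, adjusted p = 0.102, edgeR). It was called lower without TMM (adjusted p = 0.0160, edgeR) and with upper-quartile scaling (0.0493). *Cdkn2d*, the INK4 gene for p19INK4d, had -0.18 (95% interval -0.59 to 0.23, adjusted p = 0.492, edgeR) and was called lower without TMM (adjusted p = 0.0332). *Cdkn1c*, which encodes p57, had 0.20 (95% interval -0.75 to 1.15, adjusted p = 0.749, edgeR), and its sign turned without TMM (-0.26) and with ERCC scaling (-0.74).

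Of 28 tested genes of S phase and mitosis, which the CDK inhibitors restrain, 11 were called lower (39.3%, against 16.5% of all genes) and 1 was called higher (3.57%, against 12.5%), with a median log2 fold change of -0.79. *Mki67*, the Ki-67 antigen of dividing cells, fell 2.90-fold from 16.2 ± 0.497 to 5.58 ± 2.62 CPM (SD, n = 3, adjusted p = 0.0102, edgeR), and the mitotic cyclin gene *Ccnb2* fell 3.20-fold (adjusted p = 0.0192, edgeR). *Tk1*, a thymidine kinase, rose by 0.65 (adjusted p = 0.0474, edgeR) but was at -0.20 with ERCC scaling and lost its call with limma-voom, without TMM, with upper-quartile scaling and with the filter of 10 counts in every sample (adjusted p = 0.0584 to 0.397). The count called lower was 4 to 5 without any 1 of the SHMT2fl/fl mice, and the calls of *Ccnb2* (those mice or SHMT2HKO mouse 3) and *Tk1* (all but SHMT2HKO mouse 3) were lost when 1 mouse was left out. The lower T and NK cell, B cell, stellate cell and cholangiocyte markers accompanied these falls, and their part was not tested.

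Of 21 BCL2 family members other than *Bax*, 20 were tested, and 3 were called higher (15%, against 12.5% of all genes). The 6 called lower made up 30%, against 16.5% of all genes, and the median log2 fold change was -0.20. *Bcl2*, the founding antiapoptotic member, fell 2.73-fold from 13.2 ± 3.14 to 4.82 ± 1.17 CPM (SD, n = 3, adjusted p = 0.00440, edgeR). *Bcl2a1d* and *Bcl2a1b*, which are near-identical copies whose reads cannot be assigned with certainty, fell by 1.87 and 1.64 on the log2 scale (adjusted p = 0.00441 and 0.00659, edgeR). *Bnip3*, a mitophagy receptor, rose 1.75-fold from 139 ± 31.5 to 243 ± 43.6 CPM (SD, n = 3, adjusted p = 0.0204, edgeR). *Hrk*, a BH3-only gene, was called higher (adjusted p = 0.00862, edgeR) on only 4, 1 and 3 counts in SHMT2fl/fl mice 1, 2 and 3 and 11, 9 and 12 counts in SHMT2HKO mice 1, 2 and 3. *Bid*, the third, was named after its value was seen and rose by 0.50 (adjusted p = 0.0320, edgeR), although it was at -0.18 with ERCC scaling and at 0.09 without TMM (adjusted p = 0.746). *Bak1*, the other pore former, and *Bcl2l1*, which encodes BCL-XL, were not called (log2 fold changes -0.22 and -0.33, adjusted p = 0.217 and 0.245, edgeR), and *Bak1* was at 0.09 after the GC and length correction. The call of *Bnip3* was lost without SHMT2fl/fl mouse 1 or 3 or SHMT2HKO mouse 2 (adjusted p = 0.0682 to 0.0898), without TMM (0.188) and with ERCC scaling (0.778), that of *Hrk* with ERCC scaling (0.120), and that of *Bid* without any 1 mouse but SHMT2HKO mouse 1. *Hrk* was not tested without SHMT2fl/fl mouse 1 or 3 or SHMT2HKO mouse 1, nor with at least 10 counts in every sample.

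Of 45 genes of a senescence list, most of them of the senescence-associated secretory phenotype and a few of them nuclear or lysosomal (*Lmnb1*, *Hmga1*, *Hmga2* and *Glb1*), 40 were tested. Of these, 16 were called lower (40.0%, against 16.5% of all genes) and 1 was called higher (2.5%, against 12.5%), with a median log2 fold change of -0.73. *Spp1*, which encodes osteopontin and is also in the cholangiocyte list, fell 6.15-fold from 871 ± 76.3 to 142 ± 63.6 CPM (SD, n = 3, adjusted p = 0.00134, edgeR). *Mmp2*, a matrix metalloproteinase of stellate cells, fell 6.04-fold from 67.3 ± 13.9 to 11.1 ± 4.81 CPM (SD, n = 3, adjusted p = 0.00161, edgeR). *Vegfa* rose by 0.57 (adjusted p = 0.0466, edgeR) with overlapping groups, was at -0.25 with ERCC scaling and 0.12 without TMM (adjusted p = 0.599) and lost its call without any 1 mouse but SHMT2fl/fl mouse 1 or SHMT2HKO mouse 3. The count called lower was 11 to 20 over the fits without 1 mouse. Many of these genes are also expressed by stellate cells, macrophages and cholangiocytes, whose marker sums are given above, and the part of those cells was not tested.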

How the data were processed

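Total RNA from 6 livers was sequenced. According to the submitters' processing notes and the methods, the authors trimmed reads with Trimmomatic 0.36, aligned them with STAR 2.5.2b to GRCm38 (mm10) plus the ERCC spike-in sequences, and counted uniquely mapped reads per gene with featureCounts (Subread 1.5.2). The strand setting is not given in the sources used here. The deposited values are these raw counts, without normalization, and 92 ERCC entries entered neither the library sizes nor the tests. Columns were assigned to groups by their labels. The labels do not say more of the replicates than a number. Each replicate was taken as 1 mouse, so the p-values rest on 3 livers per genotype.

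Genes were filtered with filterByExpr, scaled by TMM and tested with the quasi-likelihood F test (robust, two-sided) of edgeR 4.0.16 in R 4.3.3, with Benjamini-Hochberg adjustment over 16089 genes. A call is an adjusted p under 0.05. The code was tested on simulated data. Positions and exon lengths came from GENCODE M21, which held 49326 of the 49671 gene IDs, and promoters from RefSeq (GRCm38.p6). The promoter search was chosen after the values of the members had been seen.

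The members, the lists of p53 regulators, p53 targets, G1, proliferation, BCL2 family and secretome genes and the cell type markers were chosen with earlier results of these data known. Named genes are all members, *Shmt2*, *Trp53*, direct partners of members, from each list other than the markers the 2 called genes with the largest rise and the 2 with the largest fall, and the 5 genes most like *Cdkn1a*. A result of this rule is not reported here. Others are named as chosen after their values were seen. Alternatives were DESeq2 1.42.0, limma-voom (limma 3.58.1), no TMM, upper-quartile or ERCC scaling, other filters (1 count in any sample, 10 in every sample), no robust estimation, a block for the replicate number, a loess correction for GC content and length (span 0.5) and leaving out each mouse.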

Additional observations from a re-analysis of the deposited data

How the results depend on the processing

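The shares of higher and lower calls moved with the scaling and with the GC and length correction. Of 4663 calls, 43.1% were higher, against 9.87% without TMM, 32.5% with upper-quartile scaling, 3.73% with ERCC scaling (107 higher and 2759 lower) and 64.5% after the GC and length correction. The calls numbered 2866 with ERCC scaling and 2426 to 5597 without 1 mouse (lowest without SHMT2fl/fl mouse 3). A fit without 1 mouse leaves 2 in a group. The members called lower were 5 without TMM, 5 with ERCC scaling and 2 to 3 without 1 mouse. Of 16089 genes tested, 2651 were called lower in the main fit, 4923 without TMM and 2759 with ERCC scaling. Those called higher were 2012 in the main fit, 539 without TMM, 1461 with upper-quartile scaling and 1397 with the replicate block. After the GC and length correction, 4024 of 16051 genes were called higher. Without 1 mouse, the calls over all genes were 1621 to 3076 lower and 805 to 2521 higher. The other p53 targets called higher were 1 without TMM, 3 with upper-quartile scaling, 0 with ERCC scaling, 3 with the replicate block, 10 after the GC and length correction and 3 to 7 without 1 mouse, and those called lower were 21 without TMM and 5 to 16 without 1 mouse. The replicate block gave 3584 calls and the same 3 members, but the numbers did not pair the samples: same-numbered livers correlated in their deviations at -0.0766 to 0.0125, and 1 of 6 livers correlated best with its own number. With the block, *Cop1*, *Tnfrsf10b*, *Rbl2*, *Tk1*, *Ei24*, *Slc19a2* and *E2f2* were not called (adjusted p = 0.0513 to 0.0957) and *Ccnd1* was called lower (0.0220). With at least 10 counts in every sample, *Cdkn2a*, *Cdkn2b*, *Tnfrsf10b*, *Cdkn3* and *Hrk* were not tested.

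Of 808 single-gene values under the alternatives for 51 genes, 649 kept their direction and their side of the threshold, 98 lost their call (57 of them without 1 mouse), 23 gained one and 38 changed sign. The sign changes without TMM were *Mdm2* -0.39, *Ccng1* -0.21, *Rbl2* -0.079, *Cdk6* -0.37, *Cdk2* -0.30, *Gdf15* -0.053 and *Cdkn1c* -0.26. With ERCC scaling they were *Mdm2* -0.64, *Ccng1* -0.44, *Cop1* -0.27, *Rbl2* -0.38, *Tk1* -0.20, *Vegfa* -0.25, *Cdk6* -0.60, *Cdk2* -0.55, *Fas* -0.10, *Ei24* -0.27, *Slc19a2* -0.15, *Bid* -0.18, *Gdf15* -0.037 and *Cdkn1c* -0.74. Upper-quartile scaling gave *Mdm2* -0.061 and *Cdk6* -0.051, the filter of 10 counts in every sample gave *Mdm2* -0.012 and *Cdk6* -0.0031, and the GC and length correction gave *Bax* 0.094, *Zmat3* 0.033 and *Bak1* 0.095. *Gdf15* was at -0.16 with limma-voom and -0.15 with the replicate block. Without 1 mouse the ranges were -0.10 to 0.22 for *Mdm2*, -0.10 to 0.17 for *Cdk6*, -0.026 to 0.26 for *Cdk2*, -0.34 to 0.0095 for *Rb1*, -0.74 to 0.75 for *Gdf15* and -0.39 to 0.50 for *Cdkn1c*. The cause was not tested.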

Other observations

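Within the lists, 2 further genes that are read as signs of stress or senescence did not pass the test, and both were named after their values were seen. *Gdf15*, a secreted p53 target and stress hormone, was at 22.7, 23.7 and 20.9 CPM in SHMT2fl/fl mice 1, 2 and 3 and at 6.83, 20.5 and 54.3 CPM in SHMT2HKO mice 1, 2 and 3. SHMT2HKO mouse 1 was the lowest and SHMT2HKO mouse 3 the highest of the 6 livers, and the log2 fold change was 0.28 (SE 0.62, adjusted p = 0.762, edgeR's quasi-likelihood test), against -0.74 without SHMT2HKO mouse 3. *Lmnb1*, which encodes lamin B1, whose loss is used as a sign of senescence, was at 12.2 ± 1.42 CPM in SHMT2fl/fl and 8.79 ± 1.05 CPM in SHMT2HKO livers (SD, n = 3, log2 fold change -0.47, adjusted p = 0.0609, edgeR), with every SHMT2HKO liver below every SHMT2fl/fl liver. It was called lower in 4 of the 16 alternatives. These were no TMM (adjusted p = 0.0166, edgeR), upper-quartile scaling (0.0349), at least 10 counts in every sample (0.0483) and the fit without SHMT2HKO mouse 3 (0.0271).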
